A study of Mus musculus with 9 samples.

Results

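CpG methylation of *Dnmt3a* KO ESCs was compared with that of WT ESCs, gene by gene, in promoters, gene bodies and flanks. The comparison used 6 of the 9 samples of the series, which are 3 WGBS libraries of WT and 3 of *Dnmt3a* KO ESCs, and the 3 *Dnmt3b* KO libraries were used only for values set beside them. All cells were J1 ESCs of strain 129S4/SvJae, a line of mouse embryonic stem cells, with the genotype wild type, *Dnmt3a*-/- or *Dnmt3b*-/-, and were grown in serum and LIF on gelatin without feeder cells and without any further treatment. The 3 libraries of a genotype were labelled as biological replicates, but the authors merged them into 1 table, so that every value is 1 pooled value and the spread between libraries cannot be measured. How many clones the KO libraries came from is not given in the sources used here.

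DNMT3A and DNMT3B are the de novo DNA methyltransferases, which place methyl groups on CpGs that carry none, and DNMT1 copies the existing pattern after replication. ESCs express all of them, together with the TET enzymes that oxidise methylcytosine, so that methylation in these cells is a balance of gain and loss. Promoters rich in CpGs are usually free of methylation, whereas gene bodies, flanks and CpG-poor promoters are usually methylated. Bisulfite sequencing reads methylcytosine and hydroxymethylcytosine alike, so both are included in each level given here.

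CpGs were matched by position and kept where both tables had at least 5 reads, which left 12971126 CpGs on 13 whole chromosomes and the part of chromosome 4 that the WT table reaches. The median was 23 reads per CpG in WT and 21 in *Dnmt3a* KO ESCs. The mean CpG ratio was 82.9% in WT and 50.6% in *Dnmt3a* KO ESCs, a difference of -32.3 percentage points, and by chromosome it ranged from -33.2 to -31.1 points. In *Dnmt3b* KO ESCs the difference from the same WT table over the same CpGs was -6.97 points. The *Dnmt3a* KO table had no read over 12 consecutive CpGs of *Dnmt3a* from 3902401 to 3902801 on chromosome 12 of mm9, where WT had a mean of 31.4 reads per CpG.

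Of the protein-coding genes of the annotation, 14273 lay in the shared part with at least 10 kb on both sides. The TSS of a gene was that of its longest annotated isoform, and whether ESCs use that TSS was not tested. For each gene the mean CpG ratio was taken over the proximal promoter (500 bp on both sides of the TSS), the distal promoter (500 to 3000 bp upstream), the upstream flank (3 to 10 kb upstream), the gene body (from 500 bp after the TSS to the TES) and the downstream flank (5 kb after the TES), wherever at least 5 CpGs were measured. With 1 pooled table per genotype there is no test, so a region was counted as lower when its level was more than 20 points under that of WT, a limit of size only. Intervals are 95% Newcombe intervals of the difference of read shares and cover counting error only, since PCR reads are not independent molecules and reads that span several CpGs are counted at each of them.

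The sequences below are 300-base windows of mm9 from promoters at both ends of the range, shown because their levels in *Dnmt3a* KO ESCs were far apart although WT was high in each of them. They are read 5′ to 3′ on the strand of the gene with the CpGs in capitals, and none overlaps an annotated exon. The window just before the TSS of *Ube2u* (chr4:100151165-100151464, plus strand), a ubiquitin-conjugating enzyme gene, had 6 CpGs at 85.5% in WT, and 0 of 121 reads were methylated in *Dnmt3a* KO ESCs, which allows a share of up to 2.48%. The same window of *Fbp2* (chr13:62959761-62960060, minus strand), the muscle fructose bisphosphatase, had 6 CpGs at 82.5% and 1.23%. In distal promoters the window with the most measured CpGs was taken. That of *Map2k6* (chr11:110257486-110257785, plus strand), a kinase that activates p38, had 15 CpGs at 90.9% and 3.55%, and that of *Prss48* (chr3:85808964-85809263, minus strand), a serine protease gene, had 11 CpGs at 90.8% and 7.25%. The windows from distal promoters with little loss were those of *Speer2* (chr16:69865240-69865539, minus strand), with 18 CpGs at 93.8% and 80.7%, and of the zinc finger gene *Zfp414* (chr17:33764665-33764964, plus strand), with 7 CpGs at 89.6% and 95.3%.
Ube2u: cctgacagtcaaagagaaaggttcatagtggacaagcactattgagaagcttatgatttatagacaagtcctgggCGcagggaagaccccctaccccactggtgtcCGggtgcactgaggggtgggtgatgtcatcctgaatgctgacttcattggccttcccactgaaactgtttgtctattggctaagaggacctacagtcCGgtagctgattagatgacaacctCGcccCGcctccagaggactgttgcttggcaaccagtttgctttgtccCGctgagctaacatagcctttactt
Fbp2: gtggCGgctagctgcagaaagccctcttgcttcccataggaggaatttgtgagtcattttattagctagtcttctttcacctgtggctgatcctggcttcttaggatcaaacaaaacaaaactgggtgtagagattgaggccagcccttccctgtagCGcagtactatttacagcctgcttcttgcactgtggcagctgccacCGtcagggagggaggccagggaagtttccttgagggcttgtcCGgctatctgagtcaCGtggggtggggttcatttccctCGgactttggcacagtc
Map2k6: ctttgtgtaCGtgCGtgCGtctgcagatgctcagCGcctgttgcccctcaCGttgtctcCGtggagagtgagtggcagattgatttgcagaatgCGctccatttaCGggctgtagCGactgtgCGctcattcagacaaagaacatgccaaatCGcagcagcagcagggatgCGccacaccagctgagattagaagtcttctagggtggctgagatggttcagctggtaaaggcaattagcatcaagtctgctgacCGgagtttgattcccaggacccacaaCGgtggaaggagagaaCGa
Prss48: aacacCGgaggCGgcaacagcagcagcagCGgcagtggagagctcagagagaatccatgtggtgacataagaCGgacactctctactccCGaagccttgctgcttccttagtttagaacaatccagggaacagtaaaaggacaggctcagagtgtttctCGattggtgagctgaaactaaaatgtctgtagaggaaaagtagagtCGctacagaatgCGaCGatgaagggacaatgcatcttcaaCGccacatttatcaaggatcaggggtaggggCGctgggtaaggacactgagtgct
Speer2: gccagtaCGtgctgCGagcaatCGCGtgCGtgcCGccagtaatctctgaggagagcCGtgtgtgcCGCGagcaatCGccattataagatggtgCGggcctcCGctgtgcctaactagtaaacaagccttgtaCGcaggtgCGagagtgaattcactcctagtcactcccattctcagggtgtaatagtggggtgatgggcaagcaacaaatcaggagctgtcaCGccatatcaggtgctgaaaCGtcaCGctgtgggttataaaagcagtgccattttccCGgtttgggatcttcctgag
Zfp414: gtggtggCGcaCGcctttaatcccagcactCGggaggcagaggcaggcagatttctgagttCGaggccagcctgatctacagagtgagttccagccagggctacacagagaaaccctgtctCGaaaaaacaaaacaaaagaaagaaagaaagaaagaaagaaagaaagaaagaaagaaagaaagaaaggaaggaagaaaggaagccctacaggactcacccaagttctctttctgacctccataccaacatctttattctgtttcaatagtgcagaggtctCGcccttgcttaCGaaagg
The *Zfp414* window was higher in *Dnmt3a* KO than in WT ESCs, on 86 and 176 reads, whereas its whole distal promoter was lower, at 90.5% in WT and 80.8% in *Dnmt3a* KO ESCs. Whether this window lies in a repeat was not tested. The GC content of the emptied windows shown ran from 50.3% for *Prss48* to 53.7% for *Map2k6*. That of the kept windows shown was 54.0% for *Speer2* and 46.3% for *Zfp414*. With the windows not shown, it ran from 36.3% (*Fbxw10*) to 61.0% (*Rbck1*) at promoters with the largest loss. At those with the smallest loss it ran from 29.7% (*Olfr1037*) to 55.3% (*Prr22*).

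Outside proximal promoters, nearly every gene was lower in *Dnmt3a* KO ESCs. Distal promoters had a median level of 84.3% in WT and 42.0% in *Dnmt3a* KO ESCs, and 12360 of 14004 (88.3%) were lower by more than 20 points. Upstream flanks had medians of 88.7% and 50.2%, with 13412 of 14257 (94.1%) lower. Gene bodies had medians of 86.3% and 49.9%, with 12377 of 13094 (94.5%) lower, and downstream flanks had medians of 89.2% and 51.7%, with 13036 of 14247 (91.5%) lower. The median differences of these regions were close to each other, at -35.8 points for distal promoters, -36.0 for upstream flanks, -34.1 for gene bodies and -34.3 for downstream flanks.

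Proximal promoters differed from the other regions, and most of them had little methylation in WT. Their median was 6.53% in WT ESCs, 1.33% in the *Dnmt3a* KO and 3.77% in the *Dnmt3b* KO, and 7291 of 13177 were under 10% in WT. A promoter under 20% in WT cannot be lower by more than 20 points, and 4471 (33.9%) were. In *Dnmt3a* KO ESCs 8819 proximal promoters (66.9%) were under 10%. A promoter was higher in *Dnmt3a* KO ESCs in 1096 cases, of which 3 exceeded 5 points and 0 exceeded 20 points.

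**Figure D1:**
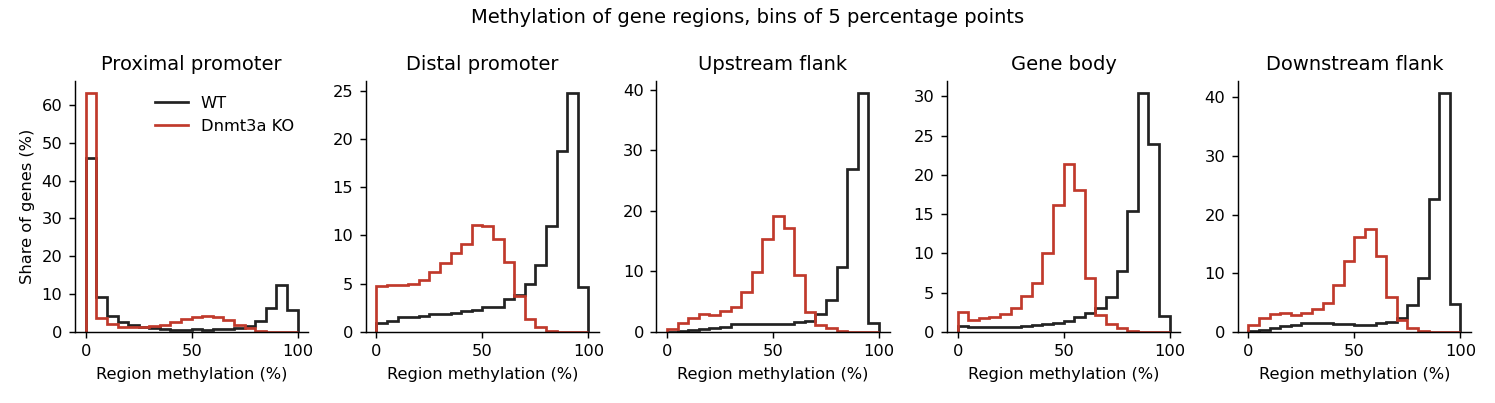
Share of the measured genes in % (y axes, each panel on its own scale) by mean CpG methylation of the region in % (x axis, bins of 5 points) for WT and *Dnmt3a* KO ESCs in the 5 kinds of region. Outside proximal promoters the *Dnmt3a* KO distribution lies left of the WT one, with medians from 42.0% to 51.7%, whereas proximal promoters pile up near 0% in both.

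In *Dnmt3b* KO ESCs few regions crossed the same limit. Lower by more than 20 points were 475 proximal promoters (3.61% of those with a value), 560 distal promoters (4%), 150 upstream flanks (1.05%), 288 gene bodies (2.2%) and 239 downstream flanks (1.68%). Both KOs were set against the same WT reads, so their counts are not independent and are given side by side only.

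Genes differed in how much methylation remained. The next values are for regions methylated at 70% or more in WT, with at least 10 CpGs and 10 to 100 reads per CpG. Predicted gene models were left out. The difference was largest and most variable in promoters. Its median was -39.3 points over 1730 proximal promoters, with the 5th and 95th percentiles at -65.0 and -20.8 points. Over 7255 distal promoters it was -39.4, with percentiles at -55.6 and -24.1. It was -37.3 points over upstream flanks (-49.7 to -25.0), -35.8 over downstream flanks (-50.1 to -23.9) and -34.9 over gene bodies, where the range was the narrowest (-45.3 to -27.5). Regions were also split into quintiles by their number of CpGs, with predicted gene models kept. From the 5th to the 95th percentile, proximal promoters spanned 40.8 points in the lowest quintile (median of 10 CpGs). In the highest (median of 25 CpGs) they spanned 47.2 points. Gene bodies spanned 28.5 points in the lowest quintile (median of 36 CpGs) and 12.7 in the highest (median of 1214 CpGs). The part of this number in the difference between the kinds of region was not tested.

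The position of the loss relative to the TSS depended on the CpG content of the promoter. Promoters were classed as high, intermediate or low by the CpG ratio and GC content of their sequence alone. High-CpG promoters had a median of 1.40% in WT and 0.426% in *Dnmt3a* KO ESCs, and 113 of 6915 were lower by more than 20 points. Intermediate promoters had medians of 21.6% and 4.30%, with 1203 of 2750 lower. Low-CpG promoters had medians of 90.5% and 51.4%, with 3155 of 3512 lower. This class held most of the promoters that crossed the limit, but 87.5% of it was at 70% or more in WT, against 0.376% of the high class. Among promoters at 70% or more in WT, the median difference was -41.7 points for 26 high-CpG promoters. It was -37.4 points for 816 intermediate and -36.8 points for 3072 low-CpG promoters.

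Around high-CpG TSSs the share of WT methylation that remained was lowest at the shoulders of the unmethylated stretch. In the bin 500 to 250 bp upstream the level was 9.27% in WT and 2.10% in *Dnmt3a* KO ESCs, so that 22.7% of the WT level remained. It was 34.5% at 1000 to 750 bp upstream (35.8% and 12.3%), 54.6% at 5000 to 4750 bp upstream (77.8% and 42.5%), and 26.1% at 750 to 1000 bp downstream (17.6% and 4.60%). In points, the largest difference of this class on the downstream side was -38.8, at 2250 to 2500 bp after the TSS (76.0% and 37.3%). In low-CpG promoters the bin 250 to 0 bp upstream was at 78.5% in WT and 40.9% in *Dnmt3a* KO ESCs, and 52.1% of the WT level remained, against 58.8% at 5000 to 4750 bp upstream.

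**Figure D2:**
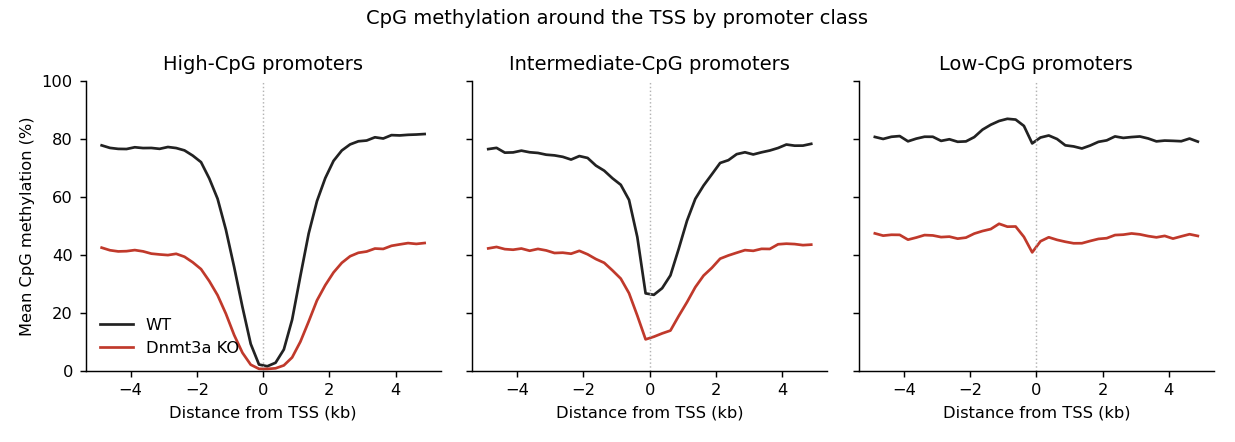
Mean CpG methylation in % (y axis) against the distance from the TSS in kb (x axis, bins of 250 bp) for WT and *Dnmt3a* KO ESCs in high-, intermediate- and low-CpG promoters. Lines are means over the CpGs of a bin, without error bars because each genotype is 1 pooled table, and in high-CpG promoters the WT shoulder that rises to 35.8% by 1000 to 750 bp upstream is at 12.3% in *Dnmt3a* KO ESCs.

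Distal promoters next to an unmethylated proximal promoter had larger differences than those next to a methylated one. Among distal promoters that were themselves methylated at 70% or more in WT, the median difference was -41.8 points for the 3713 genes whose proximal promoter was under 10% in WT (85.1% and 42.2%) and -34.7 points for the 3061 genes whose proximal promoter was at 70% or more (90.9% and 55.5%). The same split gave -38.4 and -34.9 points for upstream flanks, -35.0 and -34.2 for gene bodies, and -36.2 and -34.7 for downstream flanks, so that the gap was largest for distal promoters and smallest for gene bodies. The WT level of the distal promoters also differed between the groups. In quintiles of their WT level, the median difference was -40.4 points where the median WT level was 84.4% and -37.3 points where it was 91.6%. The part of the WT level in the gap was not tested.

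Along genes of at least 5 kb, beyond the first 10% of the length, the loss was larger toward the start than toward the end. The mean level was 85.5% in WT and 49.2% in *Dnmt3a* KO ESCs 10 to 9.5 kb upstream, and the difference reached -38.6 points 2 to 1.5 kb upstream. In the first 5% of the gene, which takes in the promoter, the levels were 38.0% and 19.6% (-18.4 points). At 15% to 20% of the length they were 84.5% and 46.6% (-37.9 points), and at 75% to 80% they were 88.7% and 53.8% (-34.9 points).

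Among single CpGs at 10% or more in WT, those with low WT methylation kept a smaller part of it. CpGs under 10% in WT, which were 7.34% of all, had means of 0.552% in WT and 0.626% in *Dnmt3a* KO ESCs. Where WT was 10% to 20%, the mean in *Dnmt3a* KO ESCs was 28.6% of that in WT, where WT was 40% to 50% it was 43.8%, and where WT was 90% to 100% it was 61.6%. These classes were formed from the WT reads that also enter the ratio, so that they describe the pooled tables only.

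The proximal promoters with the largest loss were nearly empty of methylation in *Dnmt3a* KO ESCs. That of *Ube2u* (ENSMUSG00000069733.4, chr4:100150965-100151965) was at 88.5% in WT ESCs, 6.06% in the *Dnmt3a* KO and 57.6% in the *Dnmt3b* KO over 15 CpGs, and the read shares differed by -81.9 points (-85.6 to -76.9). *Fetub*, which encodes the plasma protein fetuin B, was at 89.7%, 7.41% and 82.0% over 22 CpGs (-84.2 to -77.0). *Fbp2* was at 84.0%, 1.97% and 66.2% over 22 CpGs (-84.2 to -78.1). All of the CpGs of these promoters were lower in *Dnmt3a* KO than in WT ESCs. *Fbxw10*, an F-box gene, was at 93.3%, 12.5% and 62.3% over 11 CpGs (-85.8 to -77.3). In each of them the *Dnmt3b* KO level lay between that of *Dnmt3a* KO and that of WT ESCs. Both of these levels entered the choice of the promoters.

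Among the proximal promoters that lost least, that of *Olfr1037* had a difference whose direction rested on few CpGs. *Olfr1037*, an olfactory receptor gene, was at 73.3% in WT ESCs, 79.9% in the *Dnmt3a* KO and 71.8% in the *Dnmt3b* KO over 11 CpGs, a difference of 6.52 points, but by read share it was 75.2% and 66.0%, a difference of -9.18 points (-18.4 to -0.0823). Its 6 CpGs from 494 to 474 bp upstream of the TSS had a mean of 60.9% in WT on 15 to 21 reads each and were at 100% in *Dnmt3a* KO ESCs on 6 to 11 reads each. Its other 5 CpGs had means of 88.3% and 55.7%, so that the direction of this promoter depends on the weight given to a short run of shallow CpGs. *Ccdc54*, a coiled-coil protein gene, was at 73.9% and 68.0% over 12 CpGs (-18.1 to -4.77). Of these, 2 CpGs had no methylated read in any of the 3 genotypes, on 36 to 38 reads in WT and 32 to 34 in *Dnmt3a* KO ESCs, and without them the means were 88.7% and 81.6%. Whether the J1 genome has a CpG at these 2 positions was not tested.

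*Catsper3*, a subunit of the calcium channel of sperm, was at 92.4% in WT ESCs, 82.6% in the *Dnmt3a* KO and 91.0% in the *Dnmt3b* KO over 10 CpGs (-17.3 to -5.79), and 8 of the 10 were lower in *Dnmt3a* KO ESCs. *Prr22*, which encodes a proline-rich protein, was at 95.3%, 83.8% and 90.4% over 12 CpGs (-15.8 to -3.34). Both therefore remained highly methylated without DNMT3A.

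**Figure D3:**
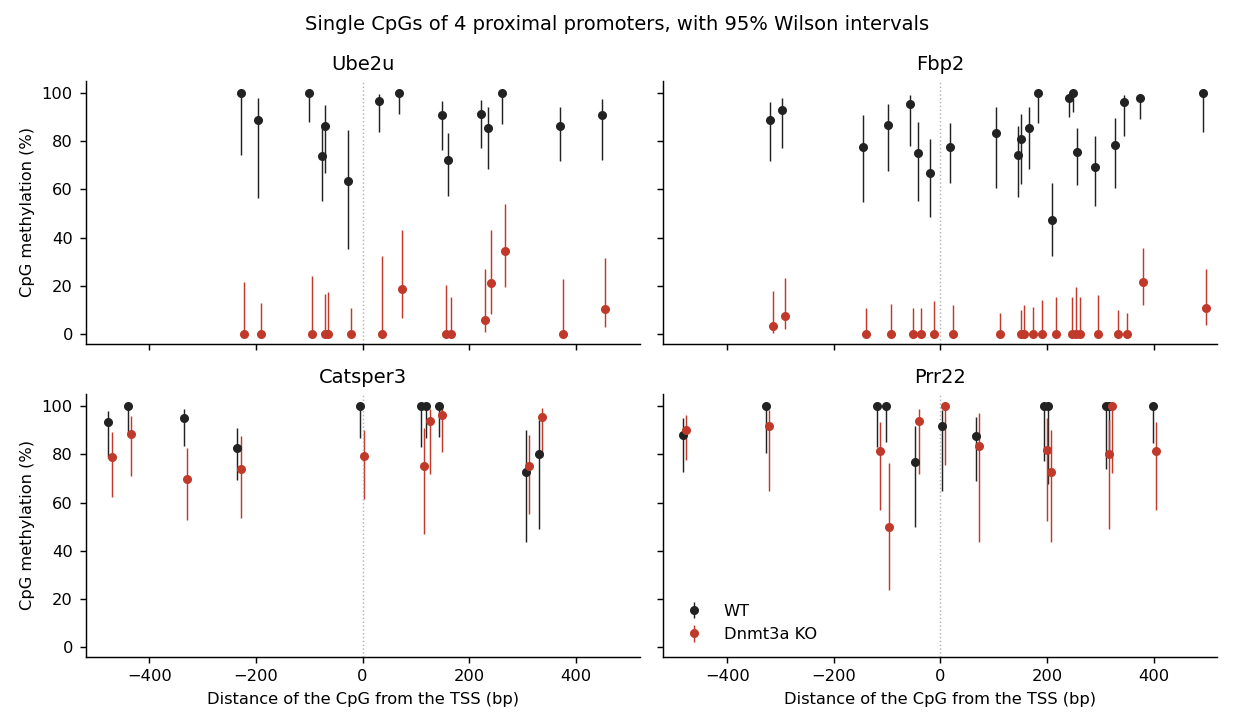
Methylation in % (y axis) of each CpG in 4 proximal promoters against its distance from the TSS in bp (x axis), in WT and *Dnmt3a* KO ESCs, with 95% Wilson intervals that cover counting error only. The genotypes are drawn slightly apart along x, and the *Dnmt3a* KO CpGs of *Ube2u* lie between 0% and 34.6% and those of *Fbp2* between 0% and 21.7%, whereas those of *Catsper3* lie between 69.7% and 96.2%, overlapping the WT values, and those of *Prr22* between 50.0% and 100%.

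Within the promoters that lost most, CpGs without methylation lay on both sides of the TSS. In *Ube2u* 10 of 15 CpGs had no methylated read in *Dnmt3a* KO ESCs, on 8 to 32 reads each, which allows shares of up to 37.5% at the shallowest and 9.38% at the deepest of them. In *Fbp2* 18 of 22 CpGs had none, on 16 to 40 reads each (up to 18.8% and 7.50%), and in *Fetub* 13 of 22 had none. Over all CpGs of the promoter, WT levels ran from 63.6% to 100% in *Ube2u* and from 47.4% to 100% in *Fbp2*. In both promoters the CpG levels of the genotypes did not overlap. Both were chosen for their large difference between the same levels, so this is a description only.

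In distal promoters, the largest losses left levels of 17.4% or lower in *Dnmt3a* KO ESCs. *Rbck1*, a component of the linear ubiquitin ligase complex, was at 89.4% in WT ESCs, 12.1% in the *Dnmt3a* KO and 69.5% in the *Dnmt3b* KO over 16 CpGs (-77.4 to -64.1). *Prss48* was at 85.7%, 9.72% and 63.3% over 42 CpGs (-77.7 to -72.1), and *Matn1*, the cartilage matrix protein matrilin, was at 92.6%, 17.4% and 72.2% over 35 CpGs (-80.4 to -73.9). The distal promoter of *Map2k6* (ENSMUSG00000020623.5, chr11:110257436-110259935) was the emptiest, at 78.3%, 4.65% and 67.7% over 45 CpGs (-78.3 to -72.8), of which 30 had no methylated read in *Dnmt3a* KO ESCs. All but 1 of these CpGs, which had no methylated read in WT either, were lower in *Dnmt3a* KO ESCs.

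The distal promoters that lost least kept most of the WT level. *Speer2* (ENSMUSG00000063163.7, chr16:69864490-69866989), of a spermatogenesis-associated gene family, was at 89.9% in WT ESCs, 82.1% in the *Dnmt3a* KO and 89.1% in the *Dnmt3b* KO over 48 CpGs (-12.2 to -6.12), with 31 CpGs lower and 12 higher. *Cd200r3*, a receptor of the CD200 receptor family, was at 73.0%, 64.6% and 75.8% over 14 CpGs (-15.9 to -5.45). *Adamdec1*, a secreted metalloprotease gene, was at 80.8%, 72.1% and 78.6% over 10 CpGs, and the interval of its read shares, -13.1 to 0.116 points, includes 0. Of its CpGs, 1 had no methylated read in WT, on 8 reads, or in *Dnmt3a* KO ESCs, on 7 reads. Without it the means were 89.8% and 80.2%. *Zfp414* was at 90.5%, 80.8% and 87.3% over 20 CpGs (-17.1 to -7.00), but its single CpGs ran from 12% to 100% in *Dnmt3a* KO ESCs. Genes of large families, such as *Speer2* and the olfactory receptors, may share reads with near-identical copies and are uncertain for that reason.

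**Figure D4:**
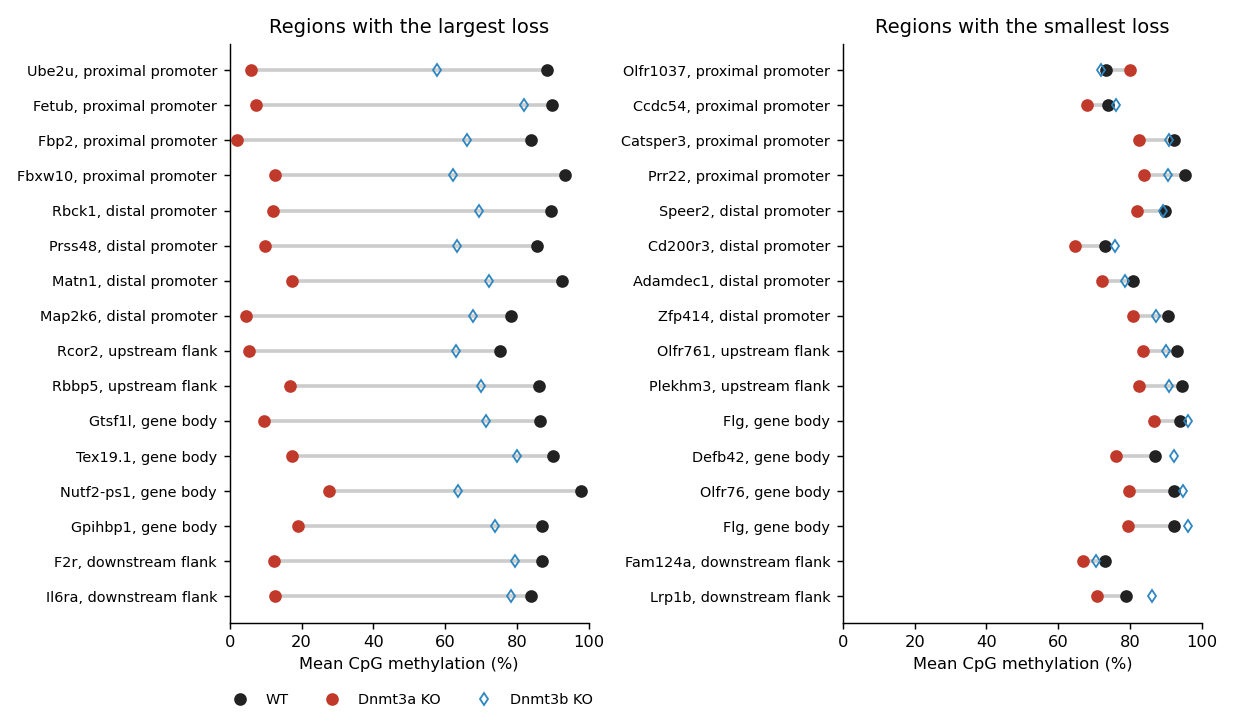
Mean CpG methylation in % (x axis) of the named regions with the largest and the smallest loss, by gene and region (y axis), in the 3 genotypes, with a grey bar from *Dnmt3a* KO to WT. Among the regions with the largest loss the *Dnmt3a* KO points lie at 27.8% or lower and the *Dnmt3b* KO points at 57.6% or higher, and among those with the smallest loss the *Dnmt3a* KO points lie at 64.6% or higher.

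Among gene bodies, the extremes were short genes with few CpGs. *Gtsf1l*, a relative of a gametocyte-specific factor, was at 86.4% in WT ESCs, 9.51% in the *Dnmt3a* KO and 71.3% in the *Dnmt3b* KO over 10 CpGs (-79.2 to -69.1). *Tex19.1*, which restrains retrotransposons in germ cells, was at 90.1%, 17.4% and 80.2% over 20 CpGs (-75.2 to -67.9). *Gpihbp1*, which holds lipoprotein lipase on capillaries, was at 86.9%, 19.0% and 73.9% over 15 CpGs (-69.5 to -58.3). *Nutf2-ps1*, named as a copy of a nuclear transport factor gene, was at 97.7%, 27.8% and 63.6% over 10 CpGs (-76.8 to -59.7), and its reads may be shared with the other copies.

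The gene bodies with the smallest loss kept most of the WT level. *Flg*, the filaggrin of skin, is annotated as several models, of which ENSMUSG00000091861.1 was at 93.9% in WT ESCs, 86.6% in the *Dnmt3a* KO and 96.1% in the *Dnmt3b* KO over 22 CpGs (-13.1 to -4.20). The model ENSMUSG00000091295.1 was at 92.3%, 79.5% and 96.2% over 21 CpGs (-17.5 to -5.86). *Defb42*, a beta-defensin, was at 87.0%, 76.1% and 92.2% over 17 CpGs (-17.9 to -6.16), and the olfactory receptor *Olfr76* at 92.2%, 79.6% and 94.9% over 12 CpGs (-17.0 to -6.26). In each of these 4 bodies the *Dnmt3b* KO level was above that of WT. The same WT level entered their choice, so this is a description only. All belong to families of similar sequence, so that reads may be shared between copies.

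Upstream flanks also ran from large to small losses, over more CpGs. The upstream flank of *Rcor2*, a corepressor of the CoREST type, was at 75.3% in WT ESCs, 5.23% in the *Dnmt3a* KO and 63.1% in the *Dnmt3b* KO over 58 CpGs (-70.5 to -65.2). That of *Rbbp5*, a subunit of histone H3 lysine methyltransferase complexes, was at 86.2% and 16.9% over 52 CpGs (-68.6 to -63.2). At the other end, the upstream flank of *Plekhm3* was at 94.5%, 82.5% and 90.9% over 125 CpGs (-12.5 to -9.30), and that of *Olfr761* at 93.2%, 83.6% and 90.1% over 76 CpGs (-14.0 to -9.07). The many CpGs of *Plekhm3* make its small loss the one with the narrowest interval among the named regions with little loss.

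Downstream flanks showed losses from large to small. That of *F2r*, the thrombin receptor, was at 87.1% in WT ESCs, 12.2% in the *Dnmt3a* KO and 79.4% in the *Dnmt3b* KO over 63 CpGs (-77.4 to -72.5), and that of *Il6ra*, a cytokine receptor subunit, was at 84.1%, 12.7% and 78.4% over 65 CpGs (-74.3 to -69.9). The flank of *Lrp1b*, a relative of the LDL receptor, was at 79.0% and 70.9% over 11 CpGs (-21.8 to -3.66). The flank of *Fam124a* was at 73.1% and 66.9% over 14 CpGs, but by read share it was at 74.7% and 76.4%, with an interval of -6.53 to 9.81 points.

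Gains were few and small. Among proximal promoters with at least 10 CpGs and 10 to 100 reads per CpG, the largest beside *Olfr1037* were at the proximal promoters of *Masp1*, a protease of the complement system, at 8.87% in WT and 15.3% in *Dnmt3a* KO ESCs over 13 CpGs, and of *Psmb8*, a subunit of the immunoproteasome, at 12.1% and 17.1% over 43 CpGs. The interval of the read shares was -3.12 to 7.48 points for *Masp1* and 1.79 to 9.14 points for *Psmb8*. *Psmb8* was at 13.9% in *Dnmt3b* KO ESCs.

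Regions that were nearly empty in *Dnmt3a* KO ESCs and regions that kept their level were described by CpG density, gene length and neighbouring regions, which did not enter the choice. Of 4255 proximal promoters methylated at 50% or more in WT, 103 were under 10% in *Dnmt3a* KO ESCs. Their median WT level, which did enter the choice, was 60.2% against 90.9% over all 4255. They held a median of 20 CpGs, or 2.10 per 100 bp, against 12 and 1.20 over all 4255, and 51 of them were of the intermediate class and 4 of the high class, against 962 and 52 of the 4255. Of 3914 proximal promoters methylated at 70% or more in WT, 145 were still at 75% or more. These had a median of 1.10 CpGs per 100 bp against 1.20, belonged to genes with a median length of 3.07 kb against 7.15 kb, and 55 of them, against 1066 of the 3914, were predicted gene models, which include copies of other genes.

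The neighbouring regions of both groups went the same way. The distal promoters of the 103 genes had a median difference of -41.2 points and their gene bodies of -36.8 points, against -34.7 and -33.9 over all 4255. For the 145 genes the values were -31.9 and -30.6 points against -34.6 and -33.8. The emptied promoters included *Col5a2*, a fibrillar collagen gene (81.3% and 5.36%), the serpin *Serpinb6c* (81.8% and 4.30%) and *Tet1*, a dioxygenase that oxidises methylcytosine (72.9% and 4.82%), and the kept ones included *Slc30a8*, the zinc transporter of insulin granules (98.1% and 84.8%), *Serpina5* (94.1% and 79.7%) and 13 olfactory receptors, which made up 357 of the 3914 promoters that these were drawn from. Of the 103 emptied promoters 0 were olfactory receptors, which made up 362 of the 4255.

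Gene families were read against the percentages given above for all genes. The list of germline genes, which are known targets of promoter methylation, had a median proximal promoter level of 64.01% in WT ESCs, 14.7% in the *Dnmt3a* KO and 40.1% in the *Dnmt3b* KO, and 27 of 34 were lower by more than 20 points in *Dnmt3a* KO ESCs. The largest difference was that of *Sohlh2*, a transcription factor of early germ cells (89.7%, 15.0% and 63.8%), followed by *Hormad2*, a protein of the meiotic chromosome axis (84.1%, 12.96% and 76.8%). The meiotic recombinase gene *Spo11* was at 77.5%, 14.7% and 58.8%, and *Piwil2*, which binds piRNAs, at 76.4%, 18.2% and 59.5%. *Tdrd9* (94.7% and 61.8%) and *Gtsf1* (96.2% and 60.3%), both of the piRNA pathway, and *Tex19.2* (95.1% and 51.1%) had the highest levels in *Dnmt3a* KO ESCs. The gene bodies of this list, at medians of 89.5% and 51.8%, were near those of all genes.

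Pluripotency genes mostly had unmethylated promoters, with medians of 4.56% in WT and 0.851% in *Dnmt3a* KO ESCs, and 8 of 24 were lower by more than 20 points, a share near the 33.9% over all genes. These included *Lefty2*, an inhibitor of Nodal signalling (84.4% and 14.4%), *Esrrb*, an orphan nuclear receptor of naive ESCs (93.9% and 24.6%), *Tcl1*, a coactivator of AKT (71.9% and 6.35%), and *Prdm14* (36.8% and 1.53%). All of these levels are at the TSS of the longest isoform, which need not be the one used in ESCs. The distal promoters of the list were at medians of 50.8% in WT ESCs, 7.28% in the *Dnmt3a* KO and 35.5% in the *Dnmt3b* KO. The upstream and downstream flanks had median differences of -41.6 and -43.5 points, against -36.0 and -34.3 over all genes. Distal promoters and gene bodies had -32.7 and -34.1 points, against -35.8 and -34.1 over all genes, and 19 of 24 bodies were lower. These regions had lower WT levels than those of all genes. Where WT was at 70% or more, the median difference was -48.2 points over 6 distal promoters, against -38.6 over all genes. It was -44.8 points over 10 gene bodies, against -34.8, and -68.1 points over 5 proximal promoters, against -36.9.

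Among the genes of the methylation machinery, 3 of 22 proximal promoters were lower by more than 20 points, which were those of *Tet1*, of *Dnmt3l*, the cofactor of both de novo enzymes (88.5% in WT ESCs, 24.2% in the *Dnmt3a* KO and 80.4% in the *Dnmt3b* KO), and of *Zfp57*, a zinc finger protein that protects imprints (80.2%, 29.1% and 75.4%). Over all 22 the median was 0.744% in WT. The TSS of *Dnmt3a* itself was at 0.386% and 0.279%, its distal promoter at 62.1% and 25.3%, its body at 79.1% and 43.9% and its downstream flank at 93.4% and 57.6%, so that the targeted gene had differences near those of other genes.

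Proximal promoters of imprinted genes had medians of 16.5% in WT and 3.67% in *Dnmt3a* KO ESCs. Of 25, 6 (24%) were lower by more than 20 points, against 33.9% over all genes. Some partly methylated ones stayed near the WT level. *Plagl1*, a zinc finger gene, was at 46.9% in WT ESCs, 50.0% in the *Dnmt3a* KO and 46.7% in the *Dnmt3b* KO over 76 CpGs, and *Mcts2* at 57.7%, 51.2% and 44.5% over 55 CpGs. *Zrsr1* was lower, at 56.2%, 38.6% and 47.9%, and so was *Impact*, at 53.1%, 35.1% and 42.4%. The 6 that were lower by more than 20 points included *Nnat*, at 63.0%, 34.3% and 90.6%. *Dcn*, which encodes the matrix proteoglycan decorin, was at 73.7%, 20.1% and 53.1%. *Htr2a* was at 64.6%, 21.7% and 44.3% and *Gnas* at 23.7%, 0.471% and 7.72%. The others were *Slc22a2*, at 91.2%, 68.2% and 93.0%, and *Rtl1*, at 95.8%, 74.6% and 88.1%. Beyond its promoter the body of *Plagl1* was at 87.3% in WT and 46.2% in *Dnmt3a* KO ESCs.

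**Figure D5:**
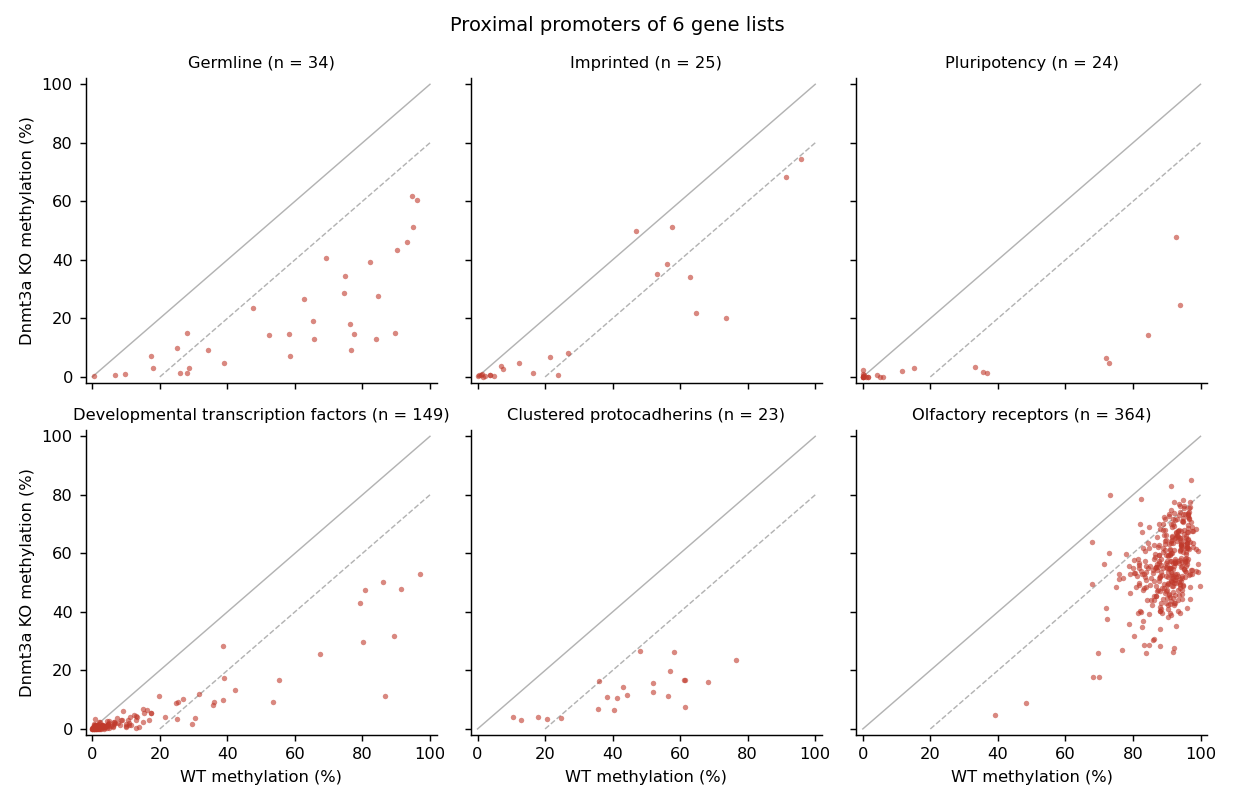
Proximal promoter methylation in % in *Dnmt3a* KO ESCs (y axis) against WT ESCs (x axis), 1 point per gene, for 6 gene lists. The solid line marks equal levels and the dashed line a difference of 20 points, and most points lie below the solid line, while *Plagl1* of the imprinted list lies above that line at 46.9% and 50.0%.

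Developmental transcription factors, whose genes often lie in long unmethylated domains, had proximal promoters at medians of 3.58% in WT and 1.07% in *Dnmt3a* KO ESCs, with 19 of 149 lower by more than 20 points. Their gene bodies had medians of 31.9% in WT ESCs, 10.5% in the *Dnmt3a* KO and 22.0% in the *Dnmt3b* KO, and 66 of 149 were lower, and their distal promoters had medians of 43.2%, 15.3% and 33.2% and 100 of 150 were lower. *Prrx2*, a homeobox gene of mesenchyme, had the largest promoter difference (86.6% and 11.2%). Where the distal promoter of this list was at 70% or more in WT, the median difference was -40.1 points, against -38.6 over all genes, so that the smaller median loss of the list goes with its lower WT levels.

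Clustered protocadherins, adhesion proteins of neurons that are chosen by stochastic promoter use, stood at intermediate levels. Their proximal promoters had medians of 44.4% in WT ESCs, 11.7% in the *Dnmt3a* KO and 34.3% in the *Dnmt3b* KO, and 18 of 23 were lower by more than 20 points. In distal promoters the medians were 82.6%, 31.4% and 61.8%, with 23 of 23 lower, and in gene bodies 62.5%, 21.2% and 50.1%, with 24 of 24 lower. The median differences of -45.0 points in distal promoters and -42.0 points in gene bodies stood against -35.8 and -34.1 over all genes. Neighbouring genes of the cluster share CpGs between their regions, and the genes are therefore not independent.

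Families of genes used in sensory organs, skin and liver, whose promoters are poor in CpGs, were highly methylated in WT ESCs and had differences near the median of methylated promoters. Olfactory receptors were at medians of 91.3% in WT and 55.9% in *Dnmt3a* KO ESCs with 334 of the 364 measured promoters lower by more than 20 points, vomeronasal receptors at 87.0% and 52.6% (27 of 28), keratins and keratin-associated proteins at 91.5% and 55.1% (71 of 83) and serpins at 89.7% and 52.0% (27 of 36). Proximal promoters of the other olfactory receptors, of 689 found, held too few measured CpGs. Within these lists the range was wide. The largest losses were at *Krt17*, at 84.7% and 18.7%, at *Olfr191*, at 92.0% and 26.3% over 5 CpGs, and at *Serpinb6c*, given above. At the other end *Krtap16-1* was at 41.4% and 38.0%, *Vmn2r2* at 87.0% and 71.6% over 6 CpGs, and *Olfr1037* and *Serpina5* were as given above, each the smallest loss of its list among promoters at 20% or more in WT.

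In the lists of genes for ribosomes, histones, translation initiation, proteasomes and RNA polymerase II, most promoters were unmethylated. Ribosomal proteins were at medians of 1.33% and 0.337%, Hist1 histone genes at 1.71% and 0.312%, translation initiation factors at 1.29% and 0.404%, and proteasome and RNA polymerase II subunits at 1.84% and 0.265%. Lower by more than 20 points were 2 of 43 promoters of ribosomal proteins, 4 of 55 of Hist1 genes, 1 of 36 of translation initiation factors and 3 of 38 of proteasome and RNA polymerase II subunits. The short gene bodies of ribosomal proteins had medians of 26.9% in WT ESCs, 6.95% in the *Dnmt3a* KO and 11.7% in the *Dnmt3b* KO, and 22 of 43 were lower by more than 20 points. Their downstream flanks, at medians of 77.3%, 29.6% and 64.04%, had the largest median difference of any list in that region, -46.3 points against -34.3 over all genes. The 2 ribosomal promoters that were lower were those of *Rps2* (81.5% and 12.4% over 8 CpGs) and *Rps10* (44.9% and 2.38% over 18 CpGs).

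The study examined some genes singly, of which *Sox2*, *Bmpr2*, *Chd7*, *Foxo1*, *Foxo3*, *Jak2* and *Jmjd4* had proximal promoters at 2.09% or less in WT and in *Dnmt3a* KO ESCs. At the proximal promoter of *Sox2*, a core transcription factor of pluripotency, 0 of 694 reads in WT and 0 of 685 in *Dnmt3a* KO ESCs were methylated, which allows up to 0.432% and 0.438%. Around it the level was low in WT and nearly absent in *Dnmt3a* KO ESCs, at 35.9% and 2.20% in the upstream flank, 5.76% and 0.469% in the distal promoter and 24.1% and 1.76% in the downstream flank. In *Dnmt3b* KO ESCs these regions were at 24.5%, 3.69% and 4.59%. Apart from *Sox2*, the gene bodies of these genes were at 72.2% to 91.9% in WT and 36.5% to 58.4% in *Dnmt3a* KO ESCs. The upstream flank of *Foxo3*, at 91.9% and 68.8%, had the smallest difference among the flanks upstream of these genes, -23.1 points, and the distal promoter of *Jmjd4*, at 61.0% and 21.4%, the largest among their distal promoters, -39.6 points.

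Sequence and position went with the size of the loss only in part. The 2370 methylated proximal promoters used here met the limits given above, with predicted gene models kept. Those in the lowest quintile of GC content had a median difference of -33.8 points and those in the highest quintile -43.1 points. For CpG density the values were -36.7 and -42.2 points, for WT level -46.9 and -34.8 points, and for the depth in *Dnmt3a* KO ESCs -39.9 and -34.1 points. Depth therefore moves with the loss as well, and its part in the values by GC content was not tested. Across genes, the differences of 2 regions of a gene had Spearman's rho between 0.153 (proximal promoter and downstream flank, 2065 genes) and 0.313 (distal promoter and upstream flank, 7681 genes), which are correlations over genes that share the same libraries and are given as a description.

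The bases beside the CpG went with how much methylation remained. DNMT3A and DNMT3B are known to differ in the bases they prefer around the CpG. Over 8424555 CpGs at 80% or more in WT with at least 10 reads in all tables, the mean was 94.6% in WT ESCs, 58.5% in the *Dnmt3a* KO and 86.2% in the *Dnmt3b* KO. With 1 base on each side and both strands pooled, the lowest level in *Dnmt3a* KO ESCs was at ACGT, 50.5%, and the highest were at CCGA, 63.1%, and CCGG, 65.0%. In *Dnmt3b* KO ESCs ACGT was at 85.7%, CCGA at 84.6% and CCGG at 86.3%. There the lowest was TCGA, at 78.3% against 61.4% in *Dnmt3a* KO ESCs, and the highest was GCGC, at 91.4% against 58.4%. The order of the contexts was thus not the same in both KOs.

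With 2 bases on each side the range in *Dnmt3a* KO ESCs widened. The lowest were GGCGCC, at 37.4% over 21417 CpGs, CACGTG, the letters of the canonical E-box, at 40.7%, and GGCGAC, at 41.5%, and the highest were GCCGTA at 71.5%, CGCGTA at 72.5% and CGCGCG at 73.2%. WT was at 94.5% for GGCGCC and 96.8% for CGCGCG. The CpGs were chosen for a high level in WT and not by their level in *Dnmt3a* KO ESCs. A narrow range in WT therefore follows from this choice, and the widths of the ranges cannot be compared between the genotypes. Among CpGs with no other CpG within 100 bp, ACGT was at 49.0% and CCGG at 64.6% in *Dnmt3a* KO ESCs. These are matches of letters and not binding sites.

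A gene region was then given the mean level that its CpGs would have from their flanking bases alone, with the level of each context taken from other chromosomes. Proximal promoters in the lowest quintile of this value had a median difference of -41.8 points and those in the highest quintile -33.3 points. For distal promoters the medians were -41.4 and -35.5 points and for gene bodies -36.4 and -33.7 points. Spearman's rho between this value and the difference was 0.175 over 2370 proximal promoters, 0.204 over 8764 distal promoters and 0.169 over 10628 gene bodies, which are descriptions over genes of the same libraries.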

How the data were processed

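The libraries were whole-genome bisulfite libraries of the 3 genotypes, with 3 per genotype. The authors aligned reads to mm9 with BSMAP, removed biased ends, clonal reads and overlapping mates with BSeQC, and counted reads per CpG with the mCall module of MOABS, whose versions are not given in the sources used here. The deposited tables hold the counts of all and of methylated reads per CpG, merged over the libraries of a genotype and not normalized. The authors also gave the methylation ratio as a fraction from 0 to 1, which was not used because it follows from the counts. The last row of the WT table, an incomplete one on chromosome 4, was left out, and the genome beyond it in that table was not analysed here.

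CpGs needed at least 5 reads in both tables and a region at least 5 CpGs, and a region level was the mean of methC/totalC in percent. Genes were the longest isoforms of protein-coding genes of the GENCODE annotation of the same build. High-CpG promoters held, from 1000 bp upstream to 500 bp downstream of the TSS, a 500-bp window with an observed over expected CpG ratio above 0.75 and a GC content above 55%, and low-CpG promoters held no window with a ratio above 0.48. The regions named are the 4 with the largest and the 4 with the smallest loss in proximal promoters, distal promoters and gene bodies and the 2 and 2 of each flank, among regions at 70% or more in WT with at least 10 CpGs and 10 to 100 reads per CpG, without predicted gene models, then the 3 proximal promoters with the largest gain, the extremes of gene lists, *Dnmt3a*, *Sox2* and the genes that the study examined singly. Not every gene that this rule names is reported here. Other members of the lists, and the genes named among emptied and kept promoters, were chosen after their values were seen. The members and lists were chosen with earlier results of these data known.

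No test was made, because each genotype is 1 pooled table. Read shares have 95% Wilson intervals and their differences Newcombe intervals, and a count of 0 allows 3 reads of the total. The scripts were tested on simulated data. Alternatives concerned the read minimum, read weights, very deep CpGs, thinning, strands, region borders, isoforms and the limit of 20 points. Named regions and gene lists were run only by read share and with at least 10 reads. Whether their levels hold at the TSS of another isoform was not tested. Python 3.11.15 was used with NumPy 2.4.6, SciPy 1.17.1, pandas 2.3.3, numba 0.67.0 and matplotlib 3.10.9. The planned share of soft-masked sequence was not computed, because the reference used here carries no masking.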

Additional observations from a re-analysis of the deposited data

How the results depend on the processing

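The mean over all CpGs, the medians of the 5 kinds of region and the counts of lower genes kept their direction under the alternatives run. The mean difference over all CpGs, -32.3 points, was -32.05 with at least 3 reads, -32.89 with at least 10 reads, -32.32 without CpGs over 200 reads, -32.34 with WT reads thinned to the median depth of *Dnmt3a* KO ESCs, -33.13 with at least 3 reads on each strand, and -26.34 as the difference of read shares. For proximal promoters the median of -5.03 points was -5.83 with at least 10 reads, -6.23 by read share, -4.49 with 3 reads on each strand, -3.23 with at least 10 CpGs and -10.65 from 1000 bp upstream to 500 bp downstream of the TSS. By read share the medians were -36.05 for distal promoters, -36.13 for upstream flanks and -34.49 for gene bodies. With reads on each strand they were -36.26, -36.27 and -34.61, and -34.55 for downstream flanks. With at least 10 reads they were -36.19 for upstream flanks and -34.39 for gene bodies, and gene bodies from 3000 bp after the TSS gave -35.09. Without CpGs inside other genes the medians were -36.51 for distal promoters and -34.52 for downstream flanks. All 50 alternative counts of lower genes were within 1.5 times the value given. Of 157 alternative values for named regions 129 moved by less than the interval, 25 by more, and 3 changed sign, which were *Olfr1037* by read share (-9.18) and with at least 10 reads (-12.64, on 6 CpGs), and the proximal promoter of *Foxo3* with at least 10 reads (0.122 in place of -0.795). Among the 129, by read share, 3 also crossed 0, which were the downstream flank of *Fam124a* (1.69 in place of -6.15) and the proximal promoters of *Dnmt3a* (0.0859 in place of -0.107) and *Chd7* (-0.00141 in place of 0.316). Of 230 alternative medians for lists 1 changed sign, that of the proximal promoters of the genes examined singly by read share (-0.0007043 in place of 0.0601). The cause of these moves was not tested, except that read shares give deep CpGs more weight by construction.

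No paired analysis was possible because the libraries of a genotype were merged into 1 table, which also left no single replicate to drop. With a median of 21 to 23 reads, the level of a single CpG is coarse, and differences of a few points were not detectable at 1 CpG. Passage numbers were similar according to the study. Clones and growth of the cultures cannot be told apart from the genotype, since each genotype is 1 pooled value.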

Other observations

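For the gene families not described above, the counts of regions lower by more than 20 points stand against 33.9% of all proximal promoters, 88.3% of distal promoters and 94.5% of gene bodies. Collagen genes had proximal promoters at medians of 26.9% in WT, 6.80% in the *Dnmt3a* KO and 19.24% in the *Dnmt3b* KO, with 13 of 31 lower by more than 20 points, and 31 of 31 of their bodies were lower. Among those at 20% or more in WT, *Col24a1* had the smallest promoter difference (24.1% and 15.9%). Solute carriers had promoters at medians of 12.4% and 2.15%, with 89 of 227 lower, and the promoter of *Slc25a2*, a mitochondrial carrier, was at 83.1% and 15.6%. Wnt ligands had 1 of 14 promoters lower, that of *Wnt8b* (87.4% in WT and 45.2% in *Dnmt3a* KO ESCs), 12 of 14 distal promoters and 10 of 14 bodies. Fibroblast growth factors had 3 of 12 promoters and 10 of 12 bodies lower, with the largest difference at *Fgf1* (65.1% and 11.0%). Kinesins, motors on microtubules, had 4 of 30 promoters and 30 of 30 bodies lower. Potassium channels had 16 of 58 promoters and 57 of 59 bodies lower, and cadherins 7 of 15 and 15 of 15, with a distal promoter at 89.9% and 20.3% for *Cdh12*. Zinc finger genes of the Zfp family had 31 of 160 promoters lower, and the distal promoter and the body of *Zfp414* differed, at 90.5% and 80.8% in the former and 89.2% and 35.9% in the latter.

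The number of CpGs nearby went with the level in *Dnmt3a* KO ESCs to a small extent. Among CpGs at 80% or more in WT, those with 0 other CpGs within 100 bp were at 93.9% in WT and 56.6% in *Dnmt3a* KO ESCs, and those with 7 or more were at 94.95% and 61.4%. In *Dnmt3b* KO ESCs the same groups were at 83.98% and 86.2%.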
